A study of Mus musculus with 6 samples.

Results

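Imprinted genes that lie outside the large imprinted clusters of chromosomes 7 and 12 were followed between F1 mouse embryonic stem cells (mESCs) and the cardiac precursor cell cultures (CPCCs) made from them. The 10 genes were *Plagl1*, *Grb10*, *Cobl*, *Ddc*, *Igf2r*, *Mest*, *Peg10*, *Sgce*, *Nnat* and *Impact*, taken by their symbols. All 10 are listed in both gene count tables, which hold 16279 genes in either and 13001 in both, and all 10 passed the filter on low counts that left 12471 genes for testing. The mESCs were male clones with a C57BL/6J mother and a CAST/EiJ father, derived on feeder cells from separate blastocysts and grown feeder-free with 2i and LIF. The CPCCs were grown from the same clones through hanging-drop embryoid bodies in medium with ascorbic acid, then dissociated and passaged with EGF and Fgf2. Each cell type has 3 bulk RNA-seq libraries of polyA-selected cDNA, the cultures are mixed in cell type, and neither group carried a further treatment or allele. The values are total counts per gene, so nothing in them tells the maternal from the paternal transcript.

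An imprinted gene is transcribed mainly from the allele of 1 parent, under the control of DNA methylation laid down in the egg or sperm. The factor ZFP57 with TRIM28 keeps that methylation through the loss of methylation in the early embryo. *Plagl1*, *Mest*, *Peg10*, *Sgce*, *Nnat* and *Impact* are known for paternal expression, and *Igf2r* for maternal expression in most mouse tissues. *Grb10* is maternal in most tissues and paternal in neurons, *Cobl* is maternally biased in some tissues, and a transcript of *Ddc* is paternal in the embryonic heart. Many genes of this class act on fetal growth and metabolism.

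The mESC libraries held 6442639 to 6907330 counts in total, and the CPCC libraries 8468819 to 11436062. The spread between libraries, as a coefficient of biological variation over all genes tested, was 19.02% in mESCs and 31.2% in CPCCs. Column names hold no replicate number, and the mESC libraries are called S01 to S03 and the CPCC libraries S04 to S06, after their columns. Levels are in CPM, the deposited counts relative to a library size that was scaled with the TMM method. Errors after ± are SDs over the n = 3 libraries of a cell type, and SE marks the error of a log2 fold change from the fit. Whether a change was larger than the spread between libraries was tested with edgeR's quasi-likelihood test over all 12471 genes, with Benjamini-Hochberg adjusted p and a threshold of 0.05.

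The cell type labels were checked against marker genes. All 8 pluripotency markers fell, and their summed level went from between 5304 and 5568 CPM in mESCs to between 122 and 286 CPM in CPCCs. Of 11 cardiac progenitor markers, 6 are listed only in CPCCs (*Nkx2-5*, *Mef2c*, *Hand1*, *Hand2*, *Myh6* and *Myh7*) and *Tbx5* only in mESCs, and 1 of the 4 tested rose. Their sum was between 10.7 and 17.4 CPM in mESCs and between 52.4 and 176 CPM in CPCCs. Markers of other cell types moved as well. Mesenchymal and fibroblast markers summed to between 10.8 and 18.6 CPM in mESCs and between 11770 and 18032 CPM in CPCCs, where all 4 tested rose and the other 5 of 9 are listed only in CPCCs. Neural markers went from between 44.0 and 49.3 to between 589 and 622 CPM, with 6 of 6 tested higher and 2 more listed only in CPCCs. Endoderm markers went from between 1045 and 1170 to between 5643 and 9018 CPM with 3 of 3 tested higher, mostly through *Sparc*, while *Afp*, *Ttr* and *Apoa1* were listed in neither cell type. In such mixed samples, a smaller number of cells of a type and less RNA per cell cannot be told apart, and the part of these cell types in the changes below was not tested.

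Of the 10 imprinted genes, 6 rose in CPCCs (*Nnat*, *Sgce*, *Peg10*, *Mest*, *Impact* and *Plagl1*), 3 fell (*Cobl*, *Ddc* and *Grb10*), and *Igf2r* did not pass the test. Over all genes tested, 61.4% passed, 31.7% as higher and 29.7% as lower in CPCCs, so 9 of 10 should be read against a background in which most genes changed. The counts given for the other lists below have the same background. The median log2 fold change of the 10 genes was 1.00, against 0.031 over all genes tested. In 8 of the 10, the ranges of the cell types did not overlap, which was so for 69.7% of all genes tested. Only *Plagl1* and *Igf2r* overlapped. A change of at least 2-fold past the threshold was found in 5 that rose and 3 that fell, against 25.5% and 19.5% of all genes tested. The summed level of the 10 was between 1743 and 1871 CPM in mESCs and between 4302 and 5575 CPM in CPCCs.

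**Figure D1:**
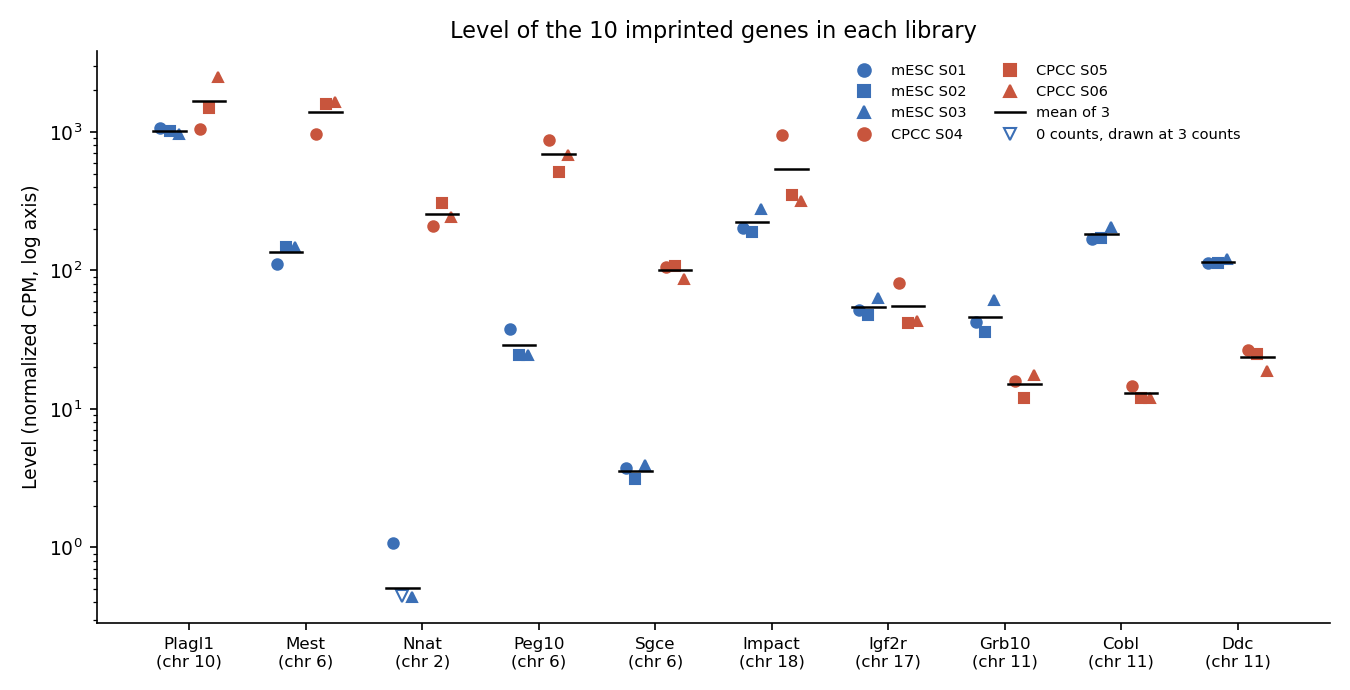
Level of each of the 10 imprinted genes in normalized CPM on a log axis, with a symbol for each mESC library (blue) and each CPCC library (red) and a bar at the mean of 3. The groups separate in all genes but *Plagl1* and *Igf2r*, and *Nnat* moves from 10 counts over the 3 mESC libraries to at least 208 CPM in each CPCC library.

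Levels of different genes were compared after division by the length of their exons. In mESCs, *Plagl1* stood first at 129.8 ± 6.55 CPM per kb, above 97.0% of the genes listed in mESCs that have an exon length. It was followed by *Impact* (43.7 ± 9.44 CPM per kb) and *Mest* (34.4 ± 5.18 CPM per kb), whose libraries overlapped. *Ddc* (25.9 ± 0.919 CPM per kb) and *Cobl* (22.3 ± 2.44 CPM per kb) came next. *Igf2r*, *Grb10* and *Peg10* lay between 4.35 and 5.81 CPM per kb on average, each overlapping its neighbour in the order. *Sgce* (0.338 ± 0.042 CPM per kb) and *Nnat* (0.277 ± 0.297 CPM per kb) were lowest and overlapped.

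In CPCCs this order was different. *Mest* led at 355 ± 95.7 CPM per kb, above 99.5% of the genes listed in CPCCs that have an exon length. It was followed by *Plagl1* at 215 ± 95.2, *Nnat* at 138.6 ± 28.1, *Impact* at 105.5 ± 69.6 and *Peg10* at 103.8 ± 26.9 CPM per kb. Each of the first 4 overlapped the next in the order. The libraries of *Mest* still lay wholly above those of *Nnat*, *Impact* and *Peg10*, and those of *Plagl1* above those of *Peg10*. A gap followed, with *Sgce*, *Igf2r* and *Ddc* between 5.28 and 9.42 CPM per kb. *Grb10* (1.65 ± 0.313 CPM per kb) and *Cobl* (1.59 ± 0.191 CPM per kb) were lowest and overlapped.

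Sequence around the transcription start was available for 7 of the 10 genes, as RefSeq windows on GRCm38.p6 from 250 bases before to 50 bases after a start, 12 windows in all. They were searched on both strands for TGCCGC, which reads GCGGCA on the other strand, the hexamer that ZFP57 recognises when it is methylated. The hexamer is in 11.6% of the 32817 windows of all genes, in 5 of the 12 windows here and in 4 of the 7 genes. Of these 5, 2 are *Mest* windows whose starts lie 3 bases apart (30738050 and 30738053) and which hold the same matches. Windows for 3 genes that rose and for 2 genes of the chromosome 11 domain that fell are shown 5′ to 3′ along the gene, with the hexamer on either strand in capitals. They are *Plagl1* at chr10:13090582-13090881 and *Nnat* at chr2:157559828-157560127 (plus strand), *Mest* at chr6:30737800-30738099 (plus strand), and *Grb10* at chr11:12037371-12037670 and *Cobl* at chr11:12464911-12465210 (minus strand).
Plagl1: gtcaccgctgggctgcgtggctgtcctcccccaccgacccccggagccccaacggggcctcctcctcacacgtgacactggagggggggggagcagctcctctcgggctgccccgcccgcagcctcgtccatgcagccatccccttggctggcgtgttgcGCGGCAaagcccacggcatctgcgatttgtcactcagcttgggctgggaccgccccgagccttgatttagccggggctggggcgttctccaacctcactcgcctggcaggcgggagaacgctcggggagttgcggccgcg
Mest: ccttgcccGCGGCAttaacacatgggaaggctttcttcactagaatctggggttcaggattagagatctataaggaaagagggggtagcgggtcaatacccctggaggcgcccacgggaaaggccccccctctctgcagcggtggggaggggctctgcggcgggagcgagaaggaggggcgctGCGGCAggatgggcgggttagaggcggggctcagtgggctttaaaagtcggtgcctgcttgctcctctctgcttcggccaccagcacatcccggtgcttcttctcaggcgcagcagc
Nnat: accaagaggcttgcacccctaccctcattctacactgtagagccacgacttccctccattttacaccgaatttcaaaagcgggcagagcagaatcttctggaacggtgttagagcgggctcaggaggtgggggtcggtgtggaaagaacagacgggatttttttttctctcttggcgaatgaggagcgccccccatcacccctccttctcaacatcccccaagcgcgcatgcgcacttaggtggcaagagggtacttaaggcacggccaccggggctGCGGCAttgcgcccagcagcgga
Grb10: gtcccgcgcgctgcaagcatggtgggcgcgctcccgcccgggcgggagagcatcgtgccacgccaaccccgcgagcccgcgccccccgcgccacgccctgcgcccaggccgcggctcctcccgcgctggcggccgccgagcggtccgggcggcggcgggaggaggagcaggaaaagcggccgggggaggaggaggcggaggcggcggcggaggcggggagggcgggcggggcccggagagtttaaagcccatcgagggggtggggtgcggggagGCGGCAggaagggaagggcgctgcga
Cobl: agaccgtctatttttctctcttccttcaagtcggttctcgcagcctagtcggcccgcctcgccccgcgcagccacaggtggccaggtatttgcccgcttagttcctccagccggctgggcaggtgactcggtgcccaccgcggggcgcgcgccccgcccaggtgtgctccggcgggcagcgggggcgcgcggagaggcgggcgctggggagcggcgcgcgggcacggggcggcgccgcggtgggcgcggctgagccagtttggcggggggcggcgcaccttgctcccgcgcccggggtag
The *Mest* window holds the hexamer 2 times, those of *Plagl1*, *Nnat* and *Grb10* hold it 1 time, and the *Cobl* window holds none. No window of *Ddc* or *Igf2r* holds it. CpG dinucleotides numbered 26 in the *Plagl1* window shown, 17 in those of *Mest* and *Nnat*, 45 in that of *Grb10* and 42 in that of *Cobl*, where all windows had a median of 7 and an upper quartile of 20. Windows at other starts of the same genes, not shown, had 8 (*Mest*, start 30733506), 9 (*Grb10*, start 12027971) and 0 (*Cobl*, start 12412140), and none of these 3 holds the hexamer. The *Igf2r* window had 34 CpGs and the 2 *Ddc* windows had 2 and 5. A match is a description of the letters in a window and not a binding site, and the hexamer is found both in windows of genes that rose and in 1 of a gene that fell.

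*Nnat*, which encodes neuronatin, a small membrane proteolipid of the endoplasmic reticulum, had the largest change. Its counts were 7 in S01, 0 in S02 and 3 in S03, and its level was 208 CPM in S04, 309 in S05 and 244 in S06. It was near the limit of detection in every mESC library, where 3 counts equal between 0.439 and 0.463 CPM, and high in every CPCC library. The log2 fold change was 8.94 (SE 0.51, adjusted p = 2.85e-06), the 8th largest rise of all genes tested. Because the fit rests on few mESC counts, the ratio of summed rates is given too: 503, with a 95% Poisson interval from 273 to 1049.8 that covers counting error only. *Nnat* (chromosome 2, 157560078 to 157562526) lies inside the span of *Blcap* on the opposite strand, with 0 shared exon bases. *Blcap* also rose, by a log2 fold change of 2.38 (adjusted p = 8.61e-05).

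*Peg10* and *Sgce* stand head to head on chromosome 6, on opposite strands with 100 bases between them in the tables (*Sgce* 4674350 to 4747205, *Peg10* 4747306 to 4760517), and share a paternally active promoter region. *Peg10* derives from a retrotransposon and is needed for the placenta. Its level was 38.0, 24.6 and 24.4 CPM in mESCs, against 875, 516 and 683 CPM in CPCCs. *Sgce* encodes ε-sarcoglycan of the dystrophin-associated complex, and had 3.71, 3.09 and 3.95 CPM in mESCs, against 105.6, 107 and 87.1 CPM in CPCCs. Both rose in every CPCC library, *Peg10* by a log2 fold change of 4.58 (SE 0.28, adjusted p = 3.67e-06) and *Sgce* by 4.80 (SE 0.22, adjusted p = 1.44e-06).

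The *Peg10* to *Sgce* ratio of counts, in which library size cancels, was 10.3, 7.95 and 6.19 in mESCs and 8.29, 4.82 and 7.85 in CPCCs. These ranges overlap. On the log2 scale the mean ratio was 2.97 ± 0.36 in mESCs and 2.76 ± 0.43 in CPCCs, a difference of -0.20 (two-sided exact permutation p = 0.7, and 0.7 after adjustment over the 2 pairs tested, with 0.1 the smallest p that 3 against 3 allows). It changed sign without S05, to 0.045. So the neighbours rose by factors of 23.9 and 27.8, and a change in their ratio was not detectable with 3 libraries each.

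Of the 12 genes of the sarcoglycan and dystroglycan complex listed as partners of *Sgce*, 6 were tested, 2 rose and the median log2 fold change was -0.045. *Sgcb*, the β-sarcoglycan, rose by 2.42, and the dystrophin paralog *Utrn* by 2.19. *Sgca*, *Sspn* and *Sntb1* are listed only in CPCCs. *Dag1* and *Dmd*, at log2 fold changes of 0.043 and -0.13, did not pass.

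*Mest*, a member of the α/β hydrolase family, lies elsewhere on chromosome 6 (30733506 to 30748467). It had 112, 148 and 147 CPM in the mESC libraries and 965, 1590.1 and 1645 CPM in the CPCC libraries. Every CPCC library was several times above every mESC library, and S04 was the lowest of the CPCCs. The log2 fold change was 3.37 (SE 0.24, adjusted p = 8.16e-06), or 10.3-fold. *Copg2*, on the opposite strand, shares 912 exon bases with *Mest*, 23.1% of its exon length. Whether counting used the strand is not given in the sources used here, so reads of that stretch are uncertain. *Copg2* itself had 19.9 ± 1.90 CPM in mESCs and 24.4 ± 3.45 CPM in CPCCs (log2 fold change 0.30, adjusted p = 0.269).

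*Impact* encodes an inhibitor of the kinase GCN2, which slows translation when amino acids run short. It lies on chromosome 18 (12972252 to 12992949). Its level was 203, 189.6 and 279 CPM in mESCs, against 953, 351 and 319 CPM in CPCCs. S04 was 2.84 times the mean of the other two CPCC libraries, and 5.20% of genes tested differed more between them. The log2 fold change was 1.27 (SE 0.40, adjusted p = 0.0201). Without S04 it was 0.59 (adjusted p = 0.00917), and the call was lost without S01 (1.21, adjusted p = 0.0731) or without S02 (1.17, adjusted p = 0.0754).

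All 8 genes of the GCN2 pathway list were tested, *Gcn1* under its older symbol *Gcn1l1*, and 1 rose and 4 fell, with a median log2 fold change of -0.39. *Asns*, the asparagine synthetase that is a classical target of the pathway, fell by 2.67, from 1482 ± 111 to 233 ± 48.3 CPM (adjusted p = 7.62e-06). *Eif2s1*, which encodes the subunit of eIF2 that GCN2 phosphorylates, fell by 1.04, and the stress-induced transcription factor *Ddit3* rose by 1.39. The kinase gene itself, *Eif2ak4*, had a log2 fold change of -0.28 (adjusted p = 0.389).

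*Plagl1* encodes a zinc finger transcription factor that can halt the cell cycle, and lies on chromosome 10 (13090788 to 13131696). It was already high in mESCs, at 1069, 1009.8 and 966 CPM, and had 1056, 1486 and 2505 CPM in CPCCs. The mESC libraries lay within a narrow range, while S04 fell inside that range and S06 far above it. The log2 fold change of 0.73 (SE 0.28, adjusted p = 0.0440) was close to the threshold and was lost in 8 of the 14 alternative settings. Among them are leaving out S06 (0.33, adjusted p = 0.143), S05 (adjusted p = 0.0612), S01 (adjusted p = 0.0983), S02 (adjusted p = 0.110) or S03 (adjusted p = 0.124). Without S04 it was 0.99 (adjusted p = 0.000424). *Hymai*, a non-coding transcript within *Plagl1* on the same strand, had 0, 12.01 and 7.002 counts in mESCs, against 16.0, 30.1 and 70.1 counts in CPCCs (adjusted p = 0.0699). These counts were at most 0.321% of those of *Plagl1* in a library, and reads of the 2 genes may not be told apart.

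A network of mostly imprinted genes has been described whose levels move with *Plagl1*. All 10 of its 13 genes that could be tested rose, against 31.7% of all genes tested. *Dcn*, *Adcyap1r1* and *Slc2a4* are listed only in CPCCs. The median log2 fold change was 3.85. *H19*, a non-coding RNA of fetal tissues, rose from 13.1 ± 4.79 to 2594 ± 322 CPM (7.63, adjusted p = 1.28e-06). *Igf2*, the fetal growth factor beside it, rose by 5.81 and *Gatm*, an enzyme of creatine synthesis, by 5.10. The list summed to between 550 and 713 CPM in mESCs and between 6596 and 7942 CPM in CPCCs. Whether *Plagl1* has a part in these changes was not tested.

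**Figure D2:**
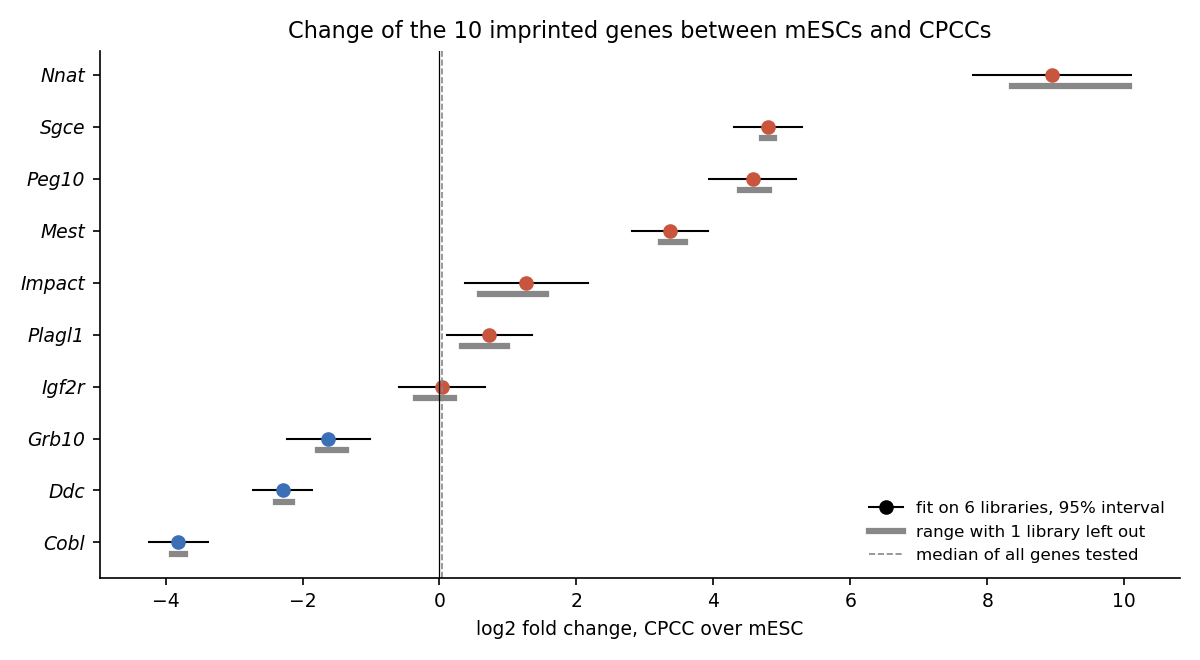
Log2 fold change (CPCC over mESC) of each of the 10 imprinted genes, with its 95% interval from the fit on 6 libraries, a grey bar for the range when 1 library is left out, and a dashed line at the median of all genes tested. Points are red above 0 and blue below, and only *Igf2r* has an interval and a grey bar that both reach across 0.

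*Ddc*, *Grb10* and *Cobl* lie on the minus strand of chromosome 11 in this order (11814101 to 11898145, 11930499 to 12037421, and 12236676 to 12464961). *Ddc* encodes aromatic L-amino acid decarboxylase, the last step to dopamine and serotonin. Its level was 114, 113 and 120.1 CPM in mESCs, against 26.7, 24.98 and 18.9 CPM in CPCCs. The groups were far apart against their spread, and *Ddc* fell by 2.29 on the log2 scale (SE 0.19, adjusted p = 1.66e-05).

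*Grb10* encodes an adaptor that binds insulin and IGF receptors and restrains their signalling. It had 42.3, 35.6 and 61.1 CPM in mESCs, against 15.8, 11.9 and 17.4 CPM in CPCCs. The lowest mESC library was above the highest CPCC library, and *Grb10* fell by 1.62 on the log2 scale (SE 0.27, adjusted p = 0.000788). *Cobl* encodes an actin nucleator. It had 169, 172 and 205 CPM in mESCs, against 14.7, 12.01 and 12.03 CPM in CPCCs, and fell by 3.81 (SE 0.19, adjusted p = 1.83e-06), which is 14.05-fold lower.

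The ratio of *Grb10* to *Cobl* counts was 0.2505, 0.207 and 0.299 in mESCs and 1.07, 0.990 and 1.45 in CPCCs, without overlap. The genes are 199254 bases apart. On the log2 scale the mean ratio went from -2.003 ± 0.26 to 0.21 ± 0.29, a difference of 2.21 (exact permutation test, two-sided p = 0.1, the lowest value that 3 against 3 allows, and 0.2 after adjustment over the 2 pairs). So *Cobl* fell further than *Grb10* in these libraries, and the difference ranged from 2.05 to 2.34 with 1 library left out. *Ddc* against *Cobl*, computed after the data were seen, went from 0.672, 0.654 and 0.586 to 1.82, 2.08 and 1.57. *Ddc* against *Grb10* went from 2.68, 3.16 and 1.96 to 1.69, 2.10 and 1.09, which overlap.

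**Figure D3:**
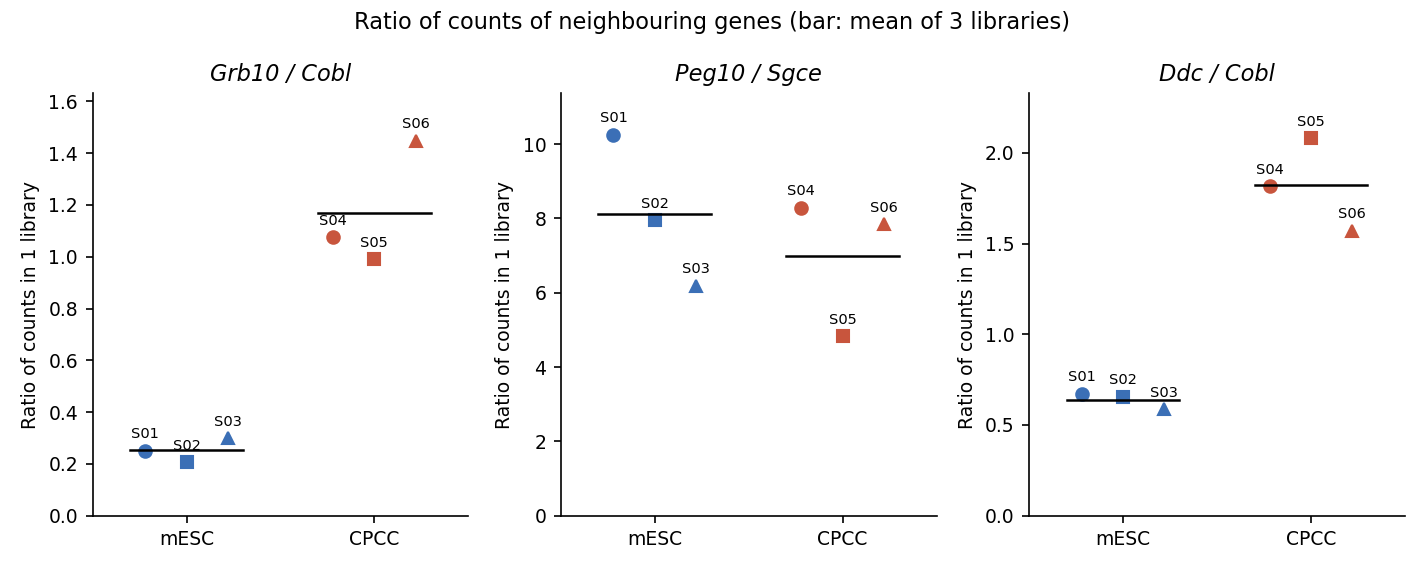
Ratio of the counts of neighbouring genes in each library, with blue mESC symbols, red CPCC symbols and a bar at the mean of 3. *Grb10* over *Cobl* (0.207 to 0.299 against 0.990 to 1.45) and *Ddc* over *Cobl* separate the cell types, and *Peg10* over *Sgce* does not.

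Genes that work with the members of the chromosome 11 domain moved in several directions. Of 11 ligands, receptors and adaptors of insulin and IGF signalling, 9 were tested, 6 rose and 1 fell, with a median log2 fold change of 1.40. *Irs1*, a docking protein of these receptors, rose by 7.39 (1.51 ± 0.707 to 254 ± 81.5 CPM), *Igf2* by 5.81 and *Irs2* by 3.39. Of 13 actin nucleators and their kin, 10 were tested, 4 rose and 0 fell, with *Lmod1* of smooth muscle at 5.57, the *Cobl* paralog *Cobll1* at 3.75 and *Fmn1* at 1.17. The other 3, formins entered in the list as *Diap1* to *Diap3*, are in the tables as *Diaph1*, *Diaph2* and *Diaph3*, and were looked up after the counts were made. *Diaph1* fell by 1.42 (adjusted p = 0.000181), and *Diaph2* and *Diaph3*, at 0.43 and 0.39, did not pass. Of 9 genes of amine synthesis, 4 were tested. *Qdpr*, which recycles tetrahydrobiopterin, fell by 2.09, *Spr* fell by 0.77 and *Pts* rose by 0.98. Of the enzymes before or after *Ddc*, *Th*, *Dbh*, *Tph1* and *Tph2* are listed only in CPCCs. *Tph1* had 199, 66 and 78 counts there, while the others had between 0 and 11 counts in a library, near the sum of 10 below which a table lists no gene.

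*Igf2r* encodes the receptor that carries mannose 6-phosphate tagged enzymes to lysosomes and clears IGF2 from the cell surface. It lies on the minus strand of chromosome 17 (12682406 to 12769707). Its level was 51.8, 47.5 and 62.9 CPM in mESCs, against 81.7, 41.4 and 43.1 CPM in CPCCs. S04 was the highest of all and the other CPCC libraries the lowest of all. The log2 fold change was 0.037 (SE 0.28, adjusted p = 0.917), with a 95% interval from -0.60 to 0.67, so a change within that range could not be detected. Without S04 it was -0.34 (adjusted p = 0.136).

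*Airn*, the non-coding RNA that starts inside *Igf2r* on the opposite strand and silences it on the paternal chromosome, was measured beside it. It had 0, 4 and 9 counts in mESCs, against 192, 116 and 147 counts in CPCCs. The ratio of *Airn* to *Igf2r* counts was 0, 0.0124 and 0.0209 in mESCs, against 0.234, 0.340 and 0.391 in CPCCs. *Airn* rose by a log2 fold change of 4.66 (SE 0.66, adjusted p = 0.000327), and the ratio of summed rates was 26.0, with a 95% Poisson interval from 15.1 to 49.3. The 2 genes share 0 exon bases, but *Airn* crosses introns of *Igf2r*, and with the counting strand not given their reads cannot be fully told apart. Of 8 genes of mannose 6-phosphate sorting, all tested, 1 rose and 3 fell. The sorting receptor *Sort1* rose by 4.13 (6.56 ± 2.97 to 115 ± 9.17 CPM), and *Gga2*, an adaptor of the Golgi, and *Nagpa*, which uncovers the tag, fell by 1.41 and 1.32.

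Genes around the members were taken from the tables by distance. Of 36 genes within 250 kb of a member, 28 were tested, 5 rose and 14 fell, against 31.7% and 29.7% of all genes tested. *Airn*, *Blcap*, *Casd1*, *Copg2* and *Ppp1r9a* are also in the list of other imprinted genes below, and the first 3 of these rose. The median log2 fold change of the neighbours was -0.51. The sign of this median turned with the distance taken, to 0.16 within 100 kb, and it was -0.27 within 500 kb. The *Igf2r* side was uneven: *Airn* rose, while the 7 tested genes between 119 and 238 kb from *Igf2r* all fell. The nearest of these were *Pnldc1*, a nuclease of small RNA maturation (-2.60), and *Mrpl18* of the mitochondrial ribosome (-1.70). Next to *Ddc*, *Fignl1* (-1.16) and the antisense gene *1700042O10Rik* (-2.10) fell as *Ddc* did, and no gene other than members was listed within 250 kb of *Cobl*. *Casd1*, 30967 bases from *Sgce*, rose by 2.15. *Osbpl1a* beside *Impact* fell by 1.87 and *Tmem209* near *Mest* by 0.69, against the direction of their imprinted neighbours. Around *Nnat*, *Rpn2* rose by 0.55 and *Ctnnbl1* fell by 0.66, and around *Plagl1*, *Ltv1* fell by 1.35 and *Sf3b5* by 0.98 while *Utrn* rose by 2.19. Another 4 genes, named after their values were seen, are listed only in CPCCs: *Cpa4*, *Stx11*, *B230208H11Rik* and *Col1a2*. The collagen gene *Col1a2*, 132805 bases from *Sgce*, had 2375 ± 590 CPM there and was at least 5302-fold higher than 3 counts per mESC library.

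**Figure D4:**
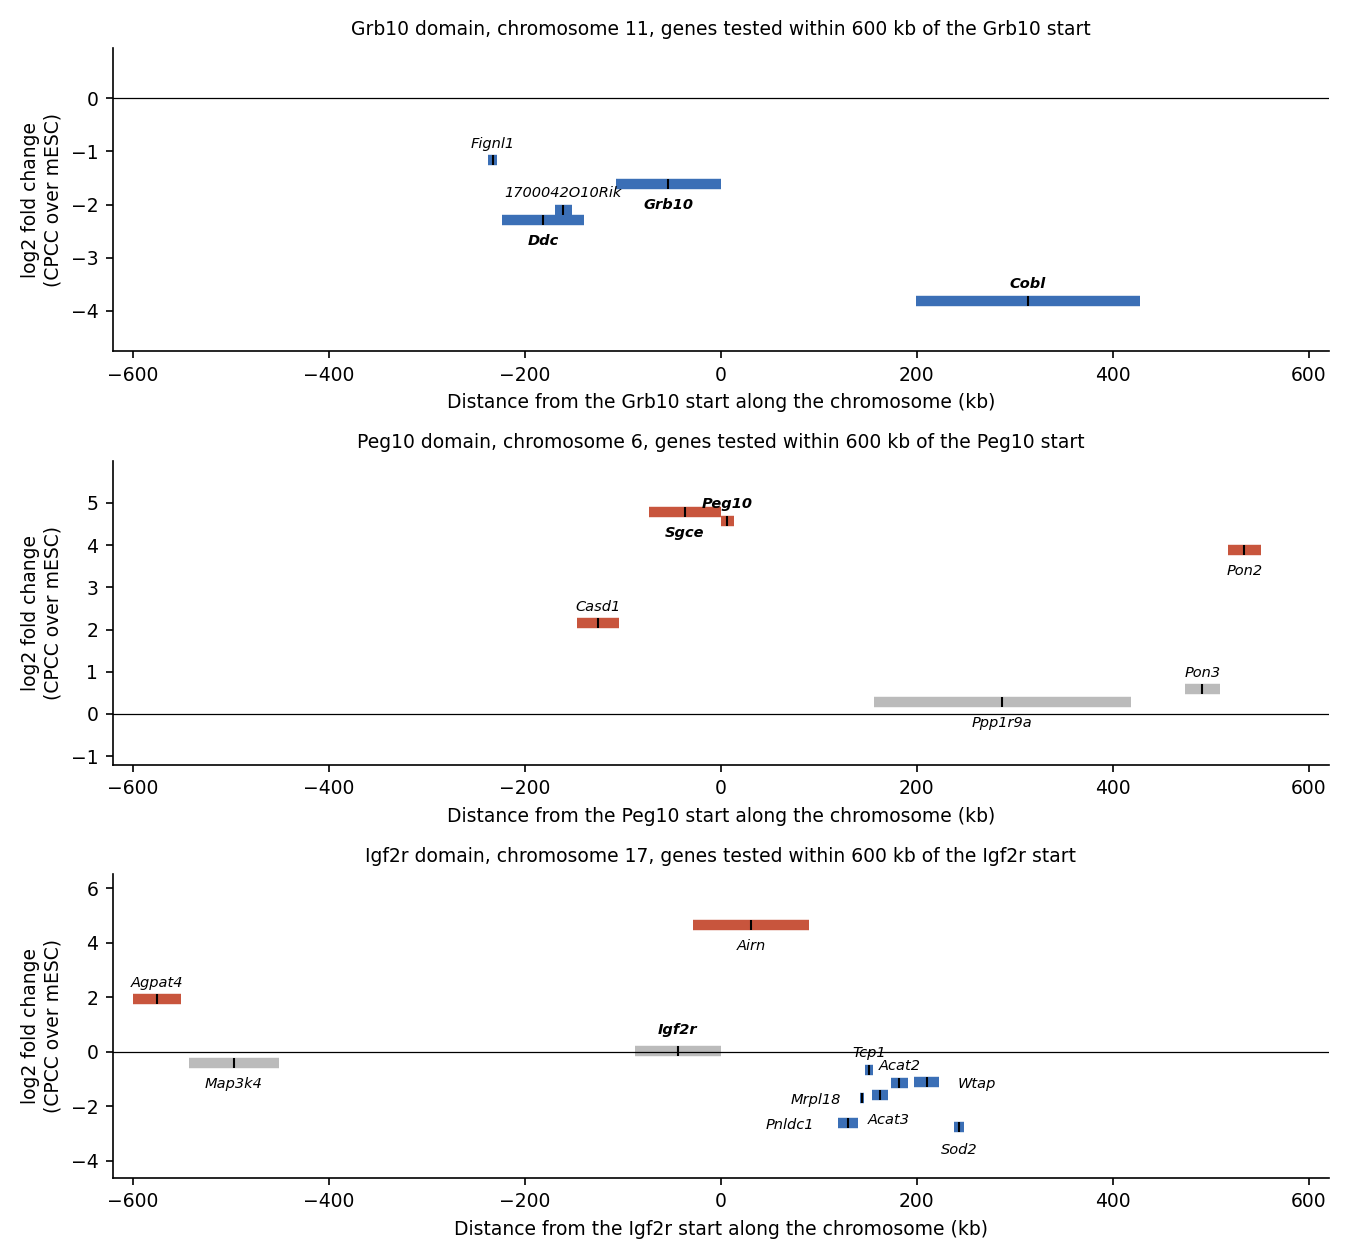
Log2 fold change (CPCC over mESC) of each tested gene within 600 kb of the start of *Grb10*, *Peg10* and *Igf2r*, drawn as a bar over its span with a tick at its middle. Bars are red for genes that rose, blue for genes that fell and grey for genes that did not pass, and imprinted genes of the set are in bold. The *Grb10* panel shows 5 genes that all fell, and the *Igf2r* panel shows 7 that fell on 1 side of the gene.

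Other imprinted genes outside chromosomes 7 and 12 were taken from a list of 31. Of these, 26 are in a table and 20 were tested, and 10 rose, 1 fell (*Commd1*, at -0.94) and 9 did not pass, with a median log2 fold change of 0.83. Over all genes tested, 31.7% rose and 29.7% fell. The non-coding RNA *Peg13* rose most, by 4.78 (2.19 ± 0.388 to 60.5 ± 11.1 CPM), followed by *Airn* and by *Pon2*, a lactonase gene on chromosome 6, at 3.89. Of 10 factors that maintain imprints, 9 fell and 0 rose, with a median of -1.80, where 29.7% of all genes tested fell. *Dppa3* fell by 4.91, *Uhrf1*, which brings DNMT1 to replicated DNA, by 2.49, and *Rif1* by 2.43. *Zfp57*, named after its values were seen because its hexamer was searched, fell from 214 ± 46.8 to 54.5 ± 14.4 CPM (-1.98, adjusted p = 0.000184). *Zfp445*, at 0.012, did not pass (adjusted p = 0.957).

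**Figure D5:**
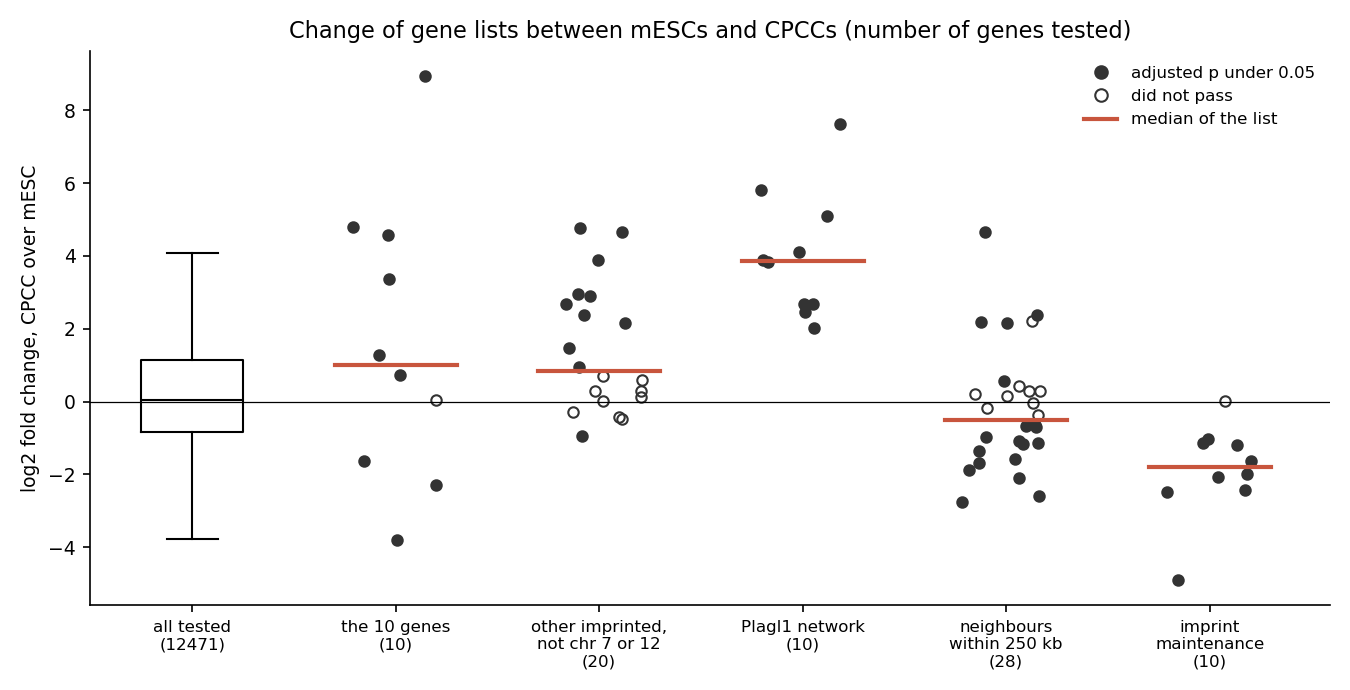
Log2 fold change (CPCC over mESC) of the genes tested in each list, with filled points for adjusted p under 0.05, open points for genes that did not pass, a red bar at the median of each list and, at the left, a box for the quartiles of all 12471 genes tested, with whiskers to the farthest genes within 1.5 times the box. The medians are 1.00 for the 10 genes, 0.83 for other imprinted genes, 3.85 for the *Plagl1* network, -0.51 for neighbours and -1.80 for imprint maintenance factors. Some genes are drawn in more than 1 list: *Airn*, *Blcap*, *Casd1*, *Copg2* and *Ppp1r9a* as other imprinted genes and neighbours, and *Gnas* as other imprinted gene and in the *Plagl1* network.

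For each member, the genes nearest in pattern were found by the root mean square difference of log2 CPM, centred on each gene's mean, over the 6 libraries. *Sgce* was nearest to *Fam149a* and *Cavin3* (0.118 and 0.123) and *Peg10* to *Hist3h2a* and *BC029722* (0.123 and 0.222). *Mest* was nearest to *Prom1* and *Igsf9* (0.162 and 0.189), and *Nnat* to *Gsn* and *Fbn1*, at a much wider distance (0.594 and 0.639). *Grb10* was nearest to *Suz12* and *Zfp78* (0.0734 and 0.0910), *Cobl* to *Smagp* and *Gca* (0.172 and 0.178), and *Ddc* to *D230025D16Rik* and *Trim13* (0.0737 and 0.0872). *Impact* was nearest to *Smim15* and *Yipf5* (0.0587 and 0.0889), *Plagl1* to *H1f0* and *Hip1r* (0.132 and 0.133), and *Igf2r* to *Itsn2* and *Ccnc* (0.0612 and 0.0681). None of these 20 genes is a member.

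The members also differed in how far their libraries lay apart within a cell type. The coefficient of variation over the 3 mESC libraries ran from 3.55% for *Ddc* and 5.05% for *Plagl1* to 28.6% for *Grb10*, and was 107% for *Nnat* with its 10 counts, where the median gene had 16.4%. In CPCCs it ran from 11.1% for *Sgce* and 12.04% for *Cobl* to 41.2% for *Igf2r*, 44.2% for *Plagl1* and 66.0% for *Impact*, where the median gene had 22.3%. S04 was the highest CPCC library for *Impact*, *Igf2r* and *Peg10*, at 2.84, 1.94 and 1.46 times the mean of S05 and S06, and the lowest for *Mest*, *Plagl1* and *Nnat*, at 0.597, 0.529 and 0.751 times that mean.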

How the data were processed

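Bulk RNA-seq of 3 mESC and 3 CPCC samples was used. Libraries were SMART-Seq polyA cDNA sequenced as paired ends. The authors deposited estimated counts of reads per gene, 1 table per cell type, not normalized and not split by allele. The labels name STAR 2.7 and mm10. The counting tool and its strand setting are not given in the sources used here. Every gene has at least 10 counts summed over the libraries of its table, so a table leaves out genes under that sum. Nothing ties the libraries to clones by number, so p-values measure the spread between these libraries. Replicate libraries differed beyond sampling noise. All columns belong to samples.

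The deposited estimated counts were rounded to whole numbers. Genes in both tables were filtered with filterByExpr and tested with edgeR 4.0.16 in R 4.3.3 (quasi-likelihood, TMM, Benjamini-Hochberg, 12471 genes). The standard error is the log2 fold change over the square root of F. Ratios of neighbours took a pseudocount of 0.5 and an exact permutation test. Exon lengths and overlaps came from GENCODE M21, and promoter windows from RefSeq. Alternatives were DESeq2 1.42.0, other normalizations, filters and library sizes, either-table tests, leaving out each library and plain totals with no TMM scaling, the last one chosen after seeing the data. The fits were tested on simulated data. Named genes are the 10 members, up to 3 threshold-passing genes per further list by size of change, the 2 nearest in pattern to each member, and up to 3 neighbours of each within 250 kb that passed. The members and lists were chosen with earlier results of these data known. Allele-specific, single-cell and chromatin data were not analysed here. Poisson intervals and floors cover counting error only. Intervals of log2 fold changes come from the quasi-likelihood fit and include the spread between libraries. Per-gene values are given with positions from the tables, where the end of minus-strand genes is 1 base past the RefSeq start. The result of 1 gene of the sarcoglycan and dystroglycan list is not reported here.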

Additional observations from a re-analysis of the deposited data

How the results depend on the processing

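*Cobl*, *Ddc*, *Grb10*, *Mest*, *Peg10* and *Sgce* kept their direction and their call in all 14 alternative settings. *Nnat* did so in 13 and was not tested with at least 10 counts in every sample, and its log2 fold change lay between 8.37 (without S02) and 10.07 (without S01). *Plagl1* lost its call in 8 settings, among them upper-quartile normalization (0.74, adjusted p = 0.0512), library totals without TMM (0.76, adjusted p = 0.0581) and missing genes set to 3 counts (0.66, adjusted p = 0.0737). *Impact* lost it in 2. *Igf2r*, which passed in none, turned to -0.028 with missing genes at 3 counts, to -0.041 without S02 and to -0.34 without S04, with a range from -0.34 to 0.21 over the libraries left out. With 1 library left out, 6536 to 7895 genes were called (3442 to 4066 higher, 3070 to 3829 lower), as were 7 to 9 members (4 to 6 higher, 3 lower in each). The *Grb10* to *Cobl* difference lay between 2.05 and 2.34, and that of *Peg10* to *Sgce* between -0.38 and 0.045, turning sign without S05. Within 100 kb, 3 neighbours were higher and 5 lower, and within 500 kb 11 were higher and 19 lower. The cause of these shifts was not tested, apart from the windows holding other numbers of genes. DESeq2 called 7893 genes and 9 members. No paired analysis was possible because the columns carry no replicate numbers. With 3 libraries a cell type, changes within the interval of *Igf2r* could not be detected, and low counts limit *Nnat*, *Airn* and *Hymai* in mESCs.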
